A study of Mus musculus with 10 samples.

Results

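The members described here are the 201 mouse miRNAs on the array that come from the 3p arm (the strand nearer the 3′ end of the hairpin) of miR-6896 to miR-7094. They were chosen by name and number among 1892 miRNAs, and none of their measured values entered the choice. Expression was measured on 10 one-colour arrays, 5 from samples titled T-C cell (source Col-/-) and 5 from samples titled control cell (source Control Col). The labels describe both groups as male, as sle liver and as mouse liver cell culture, and give a 24 hour exposure to TN-CF, 0.5 mg in a dish that held 100000 T-C cells, and a control. Treatment and source differ together between the groups and cannot be told apart. What T-C, TN-CF, Col and sle stand for is not given in the labels, and the series' design text writes TB-CF. Whether the 5 samples within a group were different animals or dishes is not stated. The p-values therefore rest on the scatter among these arrays, and that scatter could be technical only.

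Mirtrons are miRNAs whose hairpin is cut out of a messenger RNA precursor by the splicing machinery in place of the nuclear enzyme Drosha. After splicing and debranching, the short intron folds into a hairpin that Dicer can process. In a tailed mirtron one hairpin end is set by a splice site and the other is trimmed back. Because introns end in a pyrimidine-rich tract followed by AG, the 3p arm of such a hairpin carries the splice acceptor. Most mirtron arms are known for low abundance, and few have a described target or function.

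The deposited sequences bear the features of this class. Of the 201 members, 158 (78.6%) ended in AG and 137 (68.2%) in CAG, against 17 of the 202 5p arms of the same numbers (8.42%) and 60 of the 587 other 3p arms on the array (10.2%) ending in AG. Their median composition was 12.5% adenine, 40.9% cytosine, 14.3% guanine and 31.8% uracil, while the 5p arms had 22.7%, 13.6%, 43.7% and 17.4%. RefSeq entries on GRCm38.p6 existed for 176 members, and all 176 sequences were identical to those on the array. All 176 lay in an intron of some transcript of a gene on the same strand in GENCODE M21, 175 of them in a protein-coding gene. Where transcripts differed, an intron that ended at the miRNA was taken first, then any other intron, then an exon. For 135 the last base of the miRNA was the last base of the intron, and for 168 it lay within 4 bases of it. Only 8 of 171 hairpins with a RefSeq entry also began at the first base of that intron, and the introns that ended with a member had a median length of 563 bases (73 to 36269). Most members therefore sat at the 3′ end of an intron that extended well beyond the hairpin, the position of a tailed mirtron.

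The results turn on 9 members that were lower in T-C cell arrays, whose mature sequences are shown here 5′ to 3′ with the seed (bases 2 to 8, the part that pairs with targets) in capitals. They are given as on the array and in RefSeq, and positions below are on GRCm38.p6.
miR-7014-3p: cCUCUUUCauaccaaccacag
miR-7025-3p: cAGCACAAcuccagcucaccag
miR-6960-3p: aGCCAACCaccucucuccucag
miR-6917-3p: gUCACUUCucuucccaccacag
miR-7056-3p: cCUCACCUgucucccaccacag
miR-6914-3p: uCUGUCCAccucuucccag
miR-6942-3p: uUAUGGUUcucuccaccucuca
miR-6985-3p: cUCACAGCcaccuccucacag
miR-6931-3p: cCCAACCUcuucauaccccag
The 9 seeds are all different, so these members form no seed family. Outside the block, miR-673-5p shares the seed of miR-6985-3p and miR-130b-5p that of miR-7014-3p. The 201 members hold 191 distinct seeds, and the largest group that shares a seed has 3 members (miR-7018-3p, miR-7023-3p and miR-7068-3p), none of which passed the test described below.

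Detection was read against the 16 blank spots of each array. The detection limit was the blank mean plus 3 SD, applied to the average of both spots of a miRNA. It ranged from 64.0 to 474 in raw intensity, a linear scanner brightness, and 189 to 1314 of all miRNAs were detected per array. Of the listed liver cell markers, miR-122-5p, by far the most abundant hepatocyte miRNA, was detected on 1 of 10 arrays, and 2 of 5 hepatocyte markers (miR-192-5p and miR-194-5p) on at least 5. All 5 blood cell and all 5 stromal and endothelial markers reached at least 5 arrays. The summed raw intensity of the blood cell markers spanned 2962 to 6147 over T-C cell and 2200.2 to 3022 over control cell arrays. All 5 blood cell markers had a higher mean in T-C cell arrays (log2 differences 0.29 to 0.86), and miR-150-5p, a lymphocyte miRNA, rose (0.86, limma adjusted p = 0.0433). The other blood cell markers did not pass (limma adjusted p 0.368 to 0.678). Neither did miR-192-5p (0.47, limma adjusted p = 0.731), miR-194-5p (0.10, 0.875) or any stromal and endothelial marker (-0.04 to 0.17). The summed intensity of the hepatocyte markers was 17113 to 33652 and 20435 to 31516, and that of the stromal and endothelial markers 32275 to 59966 and 39443 to 47600.3, and the part of these cell types in the results below was not tested.

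Most members were near background, as were most miRNAs on the array. Of the 201, 45 were detected on no array, 112 on 1 to 4 arrays, 35 on 5 to 9 and 9 on all 10. Of all 1892 miRNAs, 568 were detected on no array, 848 on 1 to 4, 300 on 5 to 9 and 176 on all 10. The share detected on at least 5 arrays was 21.9% of members and 25.2% of all miRNAs. The number of members detected was 84, 38, 13, 30 and 61 on T-C cell replicates 1 to 5 and 44, 24, 23, 98 and 156 on control cell replicates 1 to 5. These groups overlapped, with control cell replicate 5 highest of all arrays and T-C cell replicate 3 lowest. The order followed the limit at its ends: control cell replicate 5 had the lowest limit (64.0) and T-C cell replicate 3 the highest (474). Mean numbers were 45.2 ± 27.7 for T-C cell and 69.0 ± 57.4 for control cell (SD, n = 5 each, exact two-sided permutation p = 0.476, adjusted p = 0.476 over 2 detection tests). The difference of -23.8 shrank to -2.05 without control cell replicate 5.

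**Figure D1:**
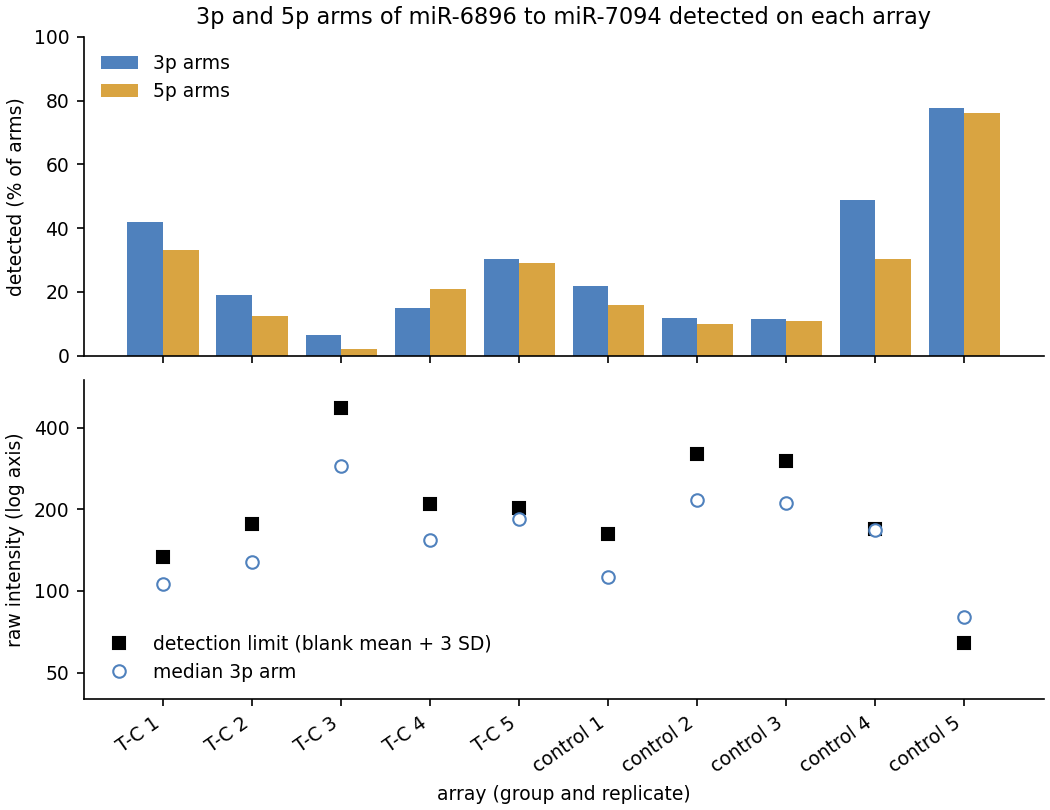
The upper panel gives the percentage of 3p and 5p arms of miR-6896 to miR-7094 detected on each array, and the lower panel the detection limit and the median raw intensity of the 3p arms on a log axis. The median 3p arm lies above the limit on control cell replicate 5 alone, where 77.6% of the 3p arms were detected.

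The share of 3p arms detected was set beside that of the 5p arms of the same block, and the difference did not pass after adjustment. Per array 28.4% ± 22.0 of 3p arms and 24.1% ± 20.9 of 5p arms were detected (SD, n = 10), a difference of 4.35 percentage points. It had the same sign on 9 of 10 arrays, T-C cell replicate 4 being the exception with 14.9% against 20.8%. The exact paired permutation test over arrays gave p = 0.0410, and the value adjusted over the 2 detection tests was 0.0820, which did not pass. The unadjusted p rose to between 0.0508 and 0.0820 (exact paired permutation) on leaving out a single array (replicate 1, 2 or 3 of T-C cell, replicate 1, 2 or 4 of control cell) and was between 0.0039 and 0.0469 when 1 of the other 4 was left out. The difference ranged from 2.77 points without control cell replicate 4 to 5.48 points without T-C cell replicate 4, where all 9 remaining arrays had the same sign (exact paired permutation p = 0.0039, unadjusted).

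The comparison of T-C cell with control cell arrays used levels on the scale log2(intensity + 50), normalized between arrays by cyclic loess. It covered the 476 miRNAs detected on at least 5 of 10 arrays, of which 44 were members. In T-C cell arrays 9 of the 44 members fell, none rose and 35 did not pass (limma, adjusted p below 0.05 over all 476). Over all tested miRNAs 7.77% passed by the same rule, that is 6.30% fell and 1.47% rose, and among members 20.5% fell. For the 5p arms of the block 0 of 39 tested passed with limma, and at an unadjusted p of 0.05 0 were lower and 2 higher. With all tested miRNAs the main fit had 30 lower and 7 higher, quantile normalization 33 and 14, and median centring 13 and 1, with members lower in 9, 9 and 3 cases and higher in none. The miRNAs outside the block gave 21 lower and 7 higher of 393. At an unadjusted limma p of 0.05, 13 members were lower and 0 higher, where 12% of all tested miRNAs were lower and 6.30% higher. A member high in 1 group alone could enter the test through that group, so these shares describe the 44 tested members and not all 201.

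The count of members that fell depended on single arrays, and so did the share of all tested miRNAs that fell. Without T-C cell replicates 1 to 5 in turn the member count was 3 of 39 tested, 4 of 42, 7 of 44, 0 of 44 and 8 of 40. Of all tested miRNAs 2.1%, 4.68%, 4.62%, 0.224% and 5.81% fell in these fits, in the same order. Without replicate 2, 3 of the 4 were among the 9 and the other was miR-7037-3p. Among fits that left out a control cell array the member count was 8 of 38 tested for replicate 4. It was 0 for each of replicates 1, 2, 3 and 5, of 40, 42, 43 and 38 tested. Of all tested miRNAs 8.45% fell without replicate 4, and 0.217%, 0.212%, 0.211% and 0.469% without replicates 1, 2, 3 and 5. In these 10 fits between 10 and 14 of the 38 to 44 tested members were lower at an unadjusted limma p of 0.05. As a share of all tested miRNAs, 10.7% to 14% were lower at that p. At that p 1 member was higher in 1 fit, miR-6929-3p without T-C cell replicate 4 (log2 difference 0.37), beside 5.06% to 7.66% of all tested miRNAs over the fits. The differences of the 9 members stayed negative wherever they could be fitted. With every miRNA on the array tested, 0 of 201 members and 1 of 1892 miRNAs passed the adjusted threshold with limma. At an unadjusted p of 0.05 in that fit 22 members were lower and 0 higher, and of all miRNAs 4.70% were lower and 1.96% higher.

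miR-7014-3p, from an intron of Ecm1 (extracellular matrix protein 1), was the brightest member (chromosome 3, 95734911 to 95734931, minus strand). Its raw intensities were 2666, 3897, 1959, 4553 and 5859 on T-C cell replicates 1 to 5 and 8974, 8469.9, 10216, 4558 and 10505 on control cell replicates 1 to 5. Control cell replicate 4 lay below T-C cell replicate 5, and the other 4 control cell arrays lay above every T-C cell array. On the normalized scale it fell from 12.97 ± 0.46 to 11.74 ± 0.65 (SD, n = 5 each), which is -1.23 as a log2 difference (SE 0.31, limma adjusted p = 0.0419).

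miR-7025-3p had the largest difference of all 201 members. It lies in an intron of Pdgfra, the receptor for platelet-derived growth factor on mesenchymal cells (chromosome 5, 75176878 to 75176899, plus strand), but 745 bases before the end of that intron, away from the splice acceptor. T-C cell replicates 1 to 5 gave raw intensities of 238, 804, 301, 900.0 and 1007, and control cell replicates 1 to 5 gave 2999.8, 3045, 2968, 929 and 4063. The low T-C cell arrays were replicates 1 and 3, and control cell replicate 4 lay among the higher T-C cell arrays. It fell 4.47-fold, with a log2 difference of -2.16 (95% interval -3.22 to -1.10, limma adjusted p = 0.0400), and the difference was -2.50 with control cell replicate 4 left out.

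miR-6960-3p, from the end of an intron of Troap, which encodes a spindle-associated protein (chromosome 15, 99080844 to 99080865, plus strand), showed the same split among the control cell arrays. T-C cell replicates 1 to 5 read 1269, 519, 713, 1044 and 1343, and control cell replicates 1 to 5 read 3956, 3075, 3172, 743 and 4021. Control cell replicate 4 was within the range of the T-C cell arrays, while the other 4 were above all of them. The log2 difference was -1.53 (SE 0.40, limma adjusted p = 0.0419).

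miR-6917-3p and miR-7056-3p were the members whose groups did not overlap on the normalized scale, 2 of 44 tested. Of all tested miRNAs 1.89% were lower without overlap. miR-6917-3p ends an intron of Erbb3, a receptor of the epidermal growth factor family (chromosome 10, 128584437 to 128584458, minus strand), and miR-7056-3p ends an intron of Ptpn5, a protein tyrosine phosphatase (chromosome 7, 47083166 to 47083187, minus strand). miR-6917-3p read 782, 1381, 965, 895 and 751 on T-C cell replicates 1 to 5 and 2339, 2886, 1742, 2068 and 2166 on the control cell replicates. miR-7056-3p read 719.7, 1266, 994, 782 and 689 and 2731, 2722, 1690.2, 1995 and 2047 in the same order. The pair tracked each other closely, with a ratio of raw intensities between 0.856 and 1.14 over the 10 arrays. Both end in the same 11 bases, UCCCACCACAG, so signal shared between their spots cannot be told apart from separate changes. miR-6917-3p fell by 1.28 on the log2 scale (SE 0.27, limma adjusted p = 0.0351) and miR-7056-3p by 1.37 (SE 0.28, limma adjusted p = 0.0351). Each was lower in 5 of 5 T-C cell arrays than in any control cell array.

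**Figure D2:**
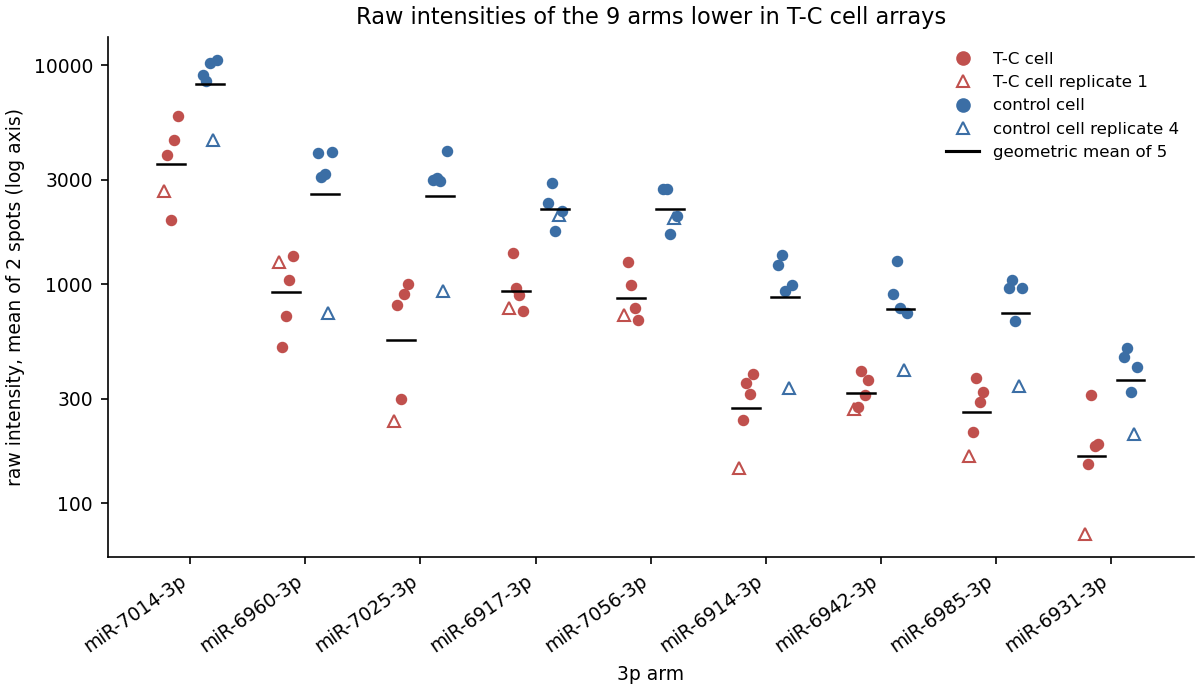
Raw intensity (mean of 2 spots, log axis) of the 9 members that fell, by group, with 1 symbol per array and a bar at the geometric mean of 5 arrays. Open triangles mark T-C cell replicate 1 and control cell replicate 4. The control cell triangle is the lowest control cell symbol and lies near or within the T-C cell points for 7 members and among the other control cell arrays for miR-6917-3p and miR-7056-3p.

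The other 4 members that fell were dimmer. miR-6914-3p, at the end of an intron of Ankrd52, a subunit of a protein phosphatase complex (chromosome 10, 128382882 to 128382900, plus strand), read 145, 241, 352, 317 and 389.6 on the T-C cell replicates and 1223, 1362, 929, 338 and 994 on the control cell replicates, in order. miR-6942-3p, 1 base from the end of an intron of Zkscan3, a zinc finger factor (chromosome 13, 21396579 to 21396600, minus strand), read 268, 275, 400.4, 311 and 364 and 906, 1274, 779.5, 406 and 735. Its raw values did not overlap, but its normalized levels did. miR-6985-3p, at the end of a 90-base intron of Ssh3, a cofilin phosphatase (chromosome 19, 4263818 to 4263838, minus strand), read 164, 211, 373, 290.4 and 321 and 961, 1049, 678, 343 and 958. miR-6931-3p, at the end of an intron of Dcakd (chromosome 11, 102999848 to 102999868, minus strand), read 72.8, 151, 312, 183 and 187 and 466, 509, 324, 207 and 417. In each of these 4 T-C cell replicate 1 was the lowest array and control cell replicate 4 the lowest of its group. Log2 differences were -1.64 (SE 0.41) for miR-6914-3p, -1.26 (SE 0.31) for miR-6942-3p, -1.47 (SE 0.36) for miR-6985-3p and -1.11 (SE 0.30) for miR-6931-3p, with limma adjusted p of 0.0419, 0.0400, 0.0400 and 0.0440. miR-6931-3p was detected on 0 of 5 T-C cell and 5 of 5 control cell arrays, so it entered the test through the control cell group alone.

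Across the 9, on the normalized scale, control cell replicate 4 was the lowest control cell array for 7 members and T-C cell replicate 1 the lowest T-C cell array for 7 (5 on raw intensity). All 5 T-C cell arrays lay below the other 4 control cell arrays for 9 of 9. The 9 were selected as lower in T-C cell arrays, and control cell replicate 4 was set aside after its values were seen. This separation is therefore no test, and its share over all tested miRNAs was not computed. The mean normalized level of the 9 was 8.43 on T-C cell replicate 1 and 9.15 to 9.66 on the other T-C cell arrays. It was 9.83 on control cell replicate 4 and 10.60 to 11.10 on the other control cell arrays. Without both of these arrays, a choice made after seeing the data, 8 of 35 tested members fell and 0 rose (limma), while of all 400 tested miRNAs 8.5% fell and 2% rose. At an unadjusted p of 0.05 that fit had 10 members lower and 0 higher, and 12.2% of all tested miRNAs lower and 7% higher. What sets these arrays apart was not tested.

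**Figure D3:**
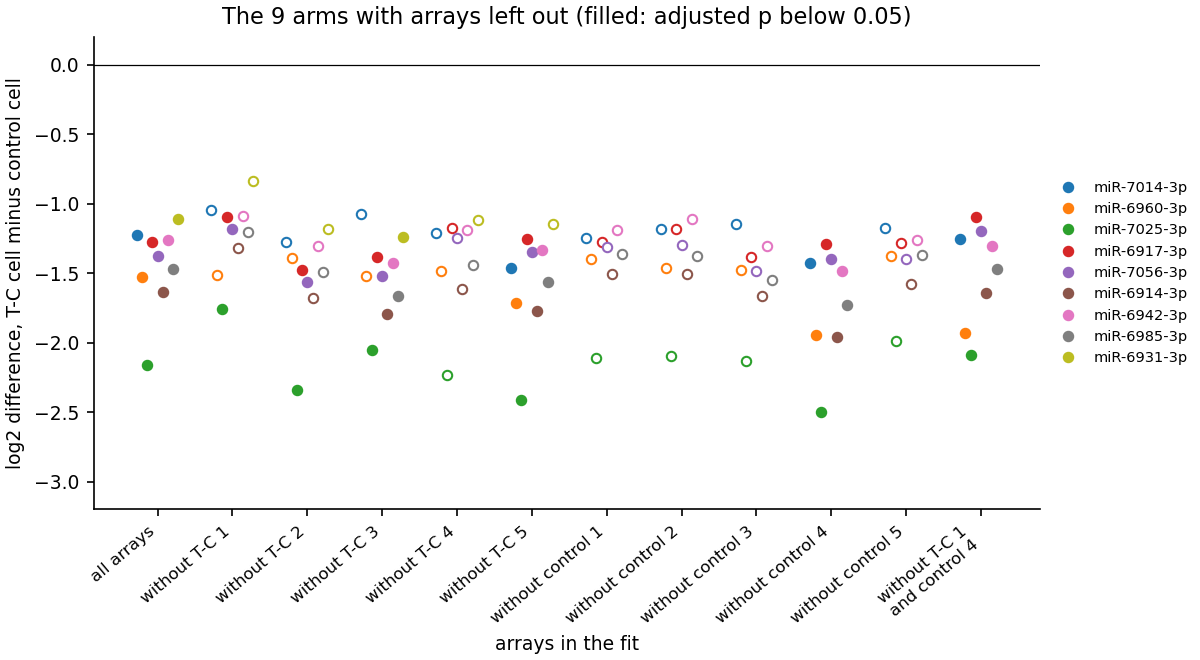
Log2 difference of the 9 members, T-C cell minus control cell, with all arrays and with the named arrays left out. Filled points passed an adjusted limma p of 0.05 and open points did not. All differences are below 0, and no member passes when the array left out is replicate 4 of T-C cell or replicate 1, 2, 3 or 5 of control cell. miR-6931-3p has no point where it was detected on fewer than 5 arrays.

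The other strand of these hairpins was mostly too dim to test. Of the 9 partner 5p arms 3 were tested, and their raw intensities in T-C cell and control cell arrays overlapped. The log2 difference was 0.15 (95% interval -0.10 to 0.41) for miR-7056-5p, 0.11 (-0.08 to 0.30) for miR-6942-5p and 0.16 (-0.27 to 0.60) for miR-6931-5p, with limma adjusted p of 0.603, 0.619 and 0.750. miR-7056-5p read 493, 242, 336, 402 and 376 on the T-C cell replicates and 252, 305, 319.7, 306 and 233 on the control cell replicates. The other 6 partner arms were detected on 0 to 2 arrays and were not tested. Whether the arms of a hairpin differ in their change was not tested.

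Several members within the brightness range of those that fell did not pass. Their sequences are shown with any ACC in capitals, since this trinucleotide had been noticed in earlier results on these data among miRNAs that fell.
miR-7058-3p: cucguuccuuccuuucuuccag
miR-7027-3p: ucggguuucucuccucuuccag
miR-6929-3p: caggugcugucuucuucuuccag
miR-6946-3p: uuucuucucuucccuuucag
miR-6896-3p: uuucucucucucACCuacaaac
miR-7037-3p: ugucuccuaaugucACCugcag
miR-7058-3p, whose hairpin spans a whole 75-base intron of Lat, an adaptor of T cell receptor signalling (chromosome 7, 126367971 to 126367992, minus strand), read 2561, 1011, 806, 1001 and 1160.4 on the T-C cell replicates and 976, 851, 896, 1085 and 1284 on the control cell replicates. T-C cell replicate 1 was the highest of all 10, and the groups overlapped (log2 difference 0.15, 95% interval -0.31 to 0.61, limma adjusted p = 0.782). miR-7027-3p, at the end of an intron of the ubiquitin ligase gene Ube3b, also peaked on that array, with 1458, 597, 513, 622 and 571 against 605, 589, 529, 674 and 593. Its log2 difference of 0.10 (-0.31 to 0.51) turned to -0.031 without T-C cell replicate 1. miR-6896-3p, from an intron of the cytolinker gene Dst, read 1991, 814, 769, 1001 and 544 and 1509.5, 1759, 809.7, 905 and 1254, which overlapped (log2 difference -0.43, SE 0.26, limma adjusted p = 0.469).

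Among the 35 tested members that did not pass, log2 differences ran from -0.58 to 0.32, with 17 below and 18 above 0. The lowest were miR-7037-3p (-0.58, limma adjusted p = 0.126, and -0.77 with adjusted p = 0.0120 without T-C cell replicate 2), miR-6973a-3p (-0.52), miR-7064-3p (-0.48), miR-6970-3p (-0.47), miR-6896-3p and miR-7013-3p (-0.39). The highest were miR-6965-3p (0.32), miR-6984-3p (0.27), miR-7082-3p (0.26), miR-6929-3p (0.24), miR-7034-3p (0.23) and miR-6946-3p (0.18). T-C cell replicate 1 was the highest of all arrays for miR-6984-3p, miR-7082-3p, miR-6929-3p, miR-7034-3p and miR-6946-3p, and the differences of miR-7082-3p and miR-6946-3p turned to -0.022 and -0.0088 without it. Of the 157 members not tested, miR-6948-3p (-0.97) and miR-7069-3p (-0.70) had the lowest differences in a fit of all 1892 miRNAs, each detected on 3 arrays. They were chosen for mention after their values were seen.

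Over all 201 members, detected or not, the median log2 difference in that fit was -0.03, against 0.00230 over all miRNAs on the array. The SD of the members' median between arrays of a group was 0.031. Without normalization the medians were 0.079 for the members and 0.090 for all miRNAs. The 9 members that fell were the only members below -1.

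**Figure D4:**
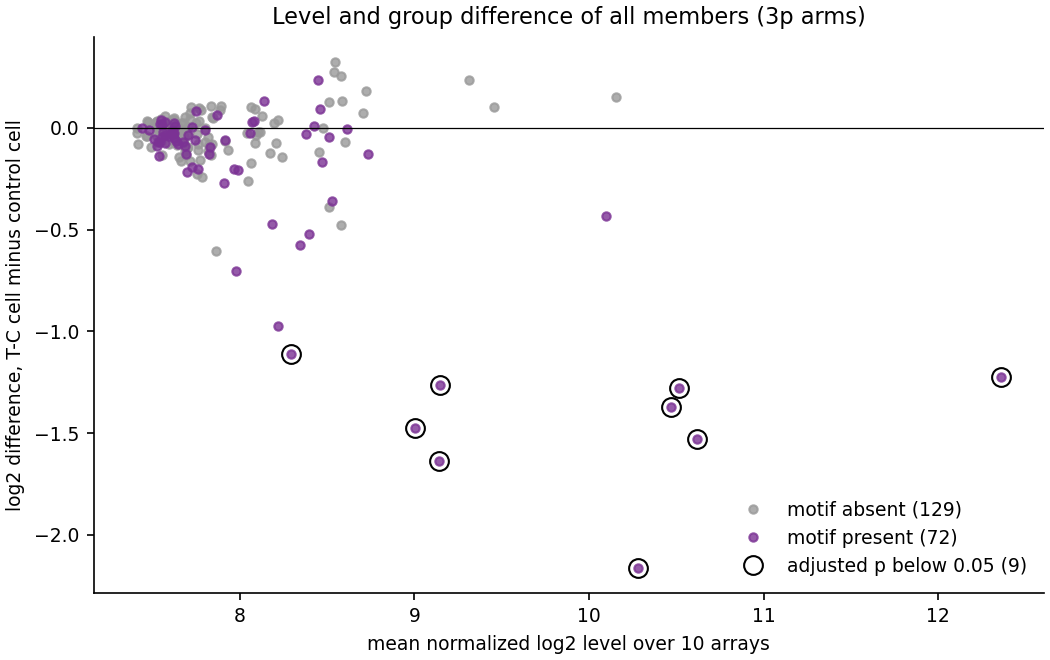
Log2 difference (T-C cell minus control cell) against mean normalized log2 level over 10 arrays for all 201 members. Purple points hold the ACC trinucleotide (72 members), grey points do not (129), and rings mark the 9 members with an adjusted limma p below 0.05. All ringed points are purple, and the dim members to the left lie close to 0 in both colours.

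By base composition the members that fell were rich in cytosine and adenine and poor in guanine. Their medians were 22.7% adenine, 47.4% cytosine, 9.09% guanine and 19.0% uracil, against 12%, 40.9%, 14.3% and 31.8% for the 35 tested members that did not pass. With all members split at the median share of each base, 8 of the 9 were above it for adenine (12.5%), 8 above it for cytosine (40.9%), 0 above it for guanine (14.3%) and 1 above it for uracil (31.8%). The median log2 difference was -0.04 above and -0.02 at or below the median adenine share, -0.04 and -0.02 for cytosine, -0.02 and -0.04 for guanine, and -0.01 and -0.04 for uracil. Across the 201 members, which share the same arrays, Spearman's rho between the log2 difference and the share of adenine was -0.30, of cytosine -0.22, of guanine 0.16 and of uracil 0.29. As the 4 shares of a sequence sum to a constant, these are not separate relations. Detection also moved with composition: 26.4% of members above the median cytosine share were tested and 18.2% of the others, while the shares were 23.2% and 20.6% for adenine.

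**Figure D5:**
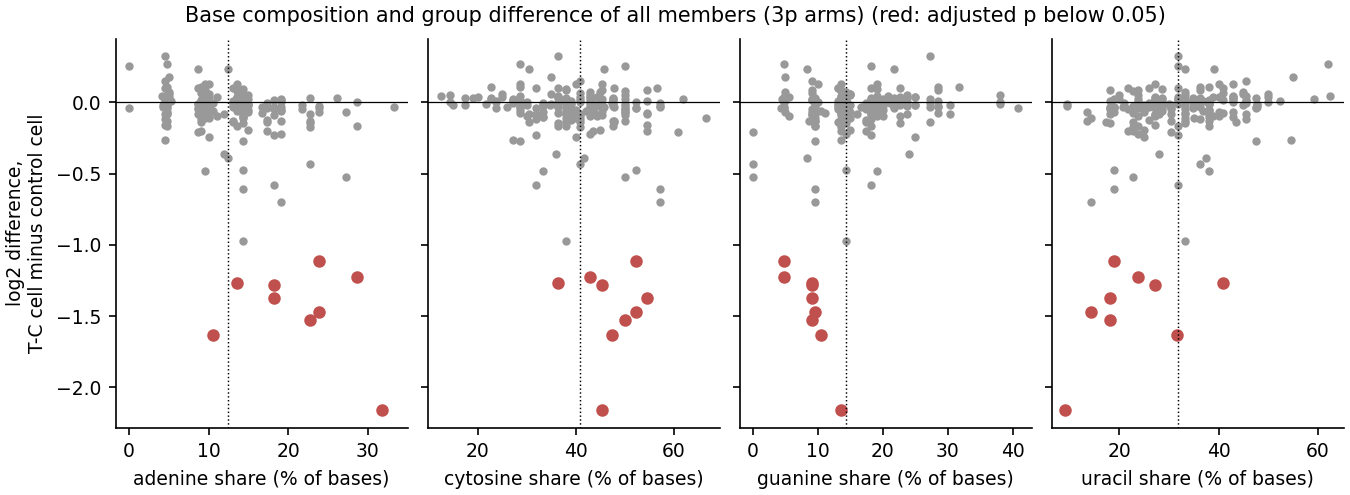
Log2 difference (T-C cell minus control cell) of all 201 members against the share of each base in the mature sequence, with the 9 members that fell in red and the median share as a dotted line. Red points lie right of the line for adenine and cytosine, except 1 each, and at or left of it for guanine.

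The ACC trinucleotide was held by 72 of 201 members (35.8%), 23 of 202 5p arms (11.4%) and 388 of all 1892 miRNAs (20.5%), read on the mature strand only. All 9 members that fell held it, and 4 of them held it more than 1 time. Of the 9 tested members that held it more than 1 time, 4 fell and the others did not pass. Members with ACC passed the detection filter more often, 31.9% of them against 16.3% of those without it. Of the 44 tested members, 9 of the 23 with ACC fell and 0 of the 21 without it. Among the other tested miRNAs outside the block, 18.8% of those with ACC fell and 0.685% of those without. The median log2 difference of all 72 members with ACC was -0.06, and that of the 129 without it -0.01. Above the members' median level the medians were -0.19 (41 members) and -0.02 (59), and at or below it -0.04 (31) and -0.01 (70). Of the 14 tested members with ACC that did not pass, 10 had a difference below 0 and 4 above. Since the motif was found in these data, the counts describe them and are no test of it.

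The members were also split by the base after the trinucleotide, a split looked at after the values were seen. Of the tested members 5 of 6 with ACC followed by A fell, 6 of 15 with ACC followed by U and 1 of 8 with ACC followed by C, where a member can hold more than 1. Of all tested miRNAs with ACC, whatever base followed, 22.6% fell. The split by the next base was not made over all tested miRNAs, so these counts describe the members alone. Of the 5 that fell with ACC followed by A, miR-6917-3p, miR-7014-3p and miR-7056-3p share the ending ACCACAG. They cannot be counted as separate cases. Some longer stretches recurred. They were found by comparing the 9 members that fell with each other, so their counts describe these members and are no test. CCACCUC was held by miR-6914-3p, miR-6942-3p, miR-6960-3p and miR-6985-3p, all of the members that hold it, and by 0.476% of the array. Outside the block it occurred in 5 miRNAs, of which 3 were tested and none passed: miR-7647-5p (log2 difference -1.44, limma adjusted p = 0.0668), miR-8112 (-0.93, 0.114) and miR-1224-3p (-0.12, 0.539). ACCACAG ended miR-6917-3p, miR-7014-3p and miR-7056-3p. It was held by 0.317% of the array, among them miR-140-3p, which did not pass (-0.12, limma adjusted p = 0.768). Whether members that share such stretches share signal was not tested, so the 9 cannot be counted as 9 independent measurements.

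Of the earlier described mouse mirtrons outside the block, the 3 tested arms did not pass. The log2 difference was 0.21 (SE 0.38) for miR-877-3p, 0.05 (SE 0.20) for miR-1224-5p and -0.12 (SE 0.08) for miR-1224-3p, with limma adjusted p of 0.838, 0.930 and 0.539. miR-877-5p, miR-702-5p and miR-702-3p were detected on 1 array each and were not tested. miR-877-3p read 1116, 191, 794, 200.2 and 326 on the T-C cell replicates and 246, 293, 275, 459.7 and 336 on the control cell replicates, with T-C cell replicates 1 and 3 highest. Its sign turned without either of them (-0.050 and -0.028), that of miR-1224-5p with quantile normalization (-0.079) and that of miR-1224-3p without normalization (0.041).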

How the data were processed

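The authors deposited 1 file per array with the median spot intensity, a linear brightness not scaled between arrays, per the file headers. Per the labels, 1 µg total RNA was poly(A)-tailed, tagged and stained with Cy3 by LC Sciences. The sources used here name no scanner, image software or miRBase release. The file headers carry array numbers of unstated meaning that do not interleave between the groups, so anything they mark cannot be told apart from the group. Each array has 3968 spots, 3784 for miRNAs (2 per miRNA) and 16 blanks.

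Levels are log2(intensity + 50), averaged over 2 spots and normalized by cyclic loess over all 1892 miRNAs (limma 3.58.1, R 4.3.3). miRNAs detected on at least 5 of 10 arrays were tested with limma (eBayes with trend, two-sided, Benjamini-Hochberg over 476). The comparison was also run on simulated data with planted differences. Values there were drawn independently, without effects that arrays share across miRNAs, so that run is no check of the dependence on single arrays. No pair of arrays was a duplicate (highest correlation 0.980). Groups and replicate numbers come from the titles. Annotation used Python 3.11.15 and GENCODE M21 on GRCm38, with RefSeq sequences and positions on GRCm38.p6, counted from 1.

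The members, lists and motif were chosen with earlier results of these data known. The named members are those that passed, those without overlap, the 8 brightest, the 6 highest and 6 lowest that did not pass, members sharing a seed with one that passed (none), the partner 5p arms, and miR-877, miR-1224 and miR-702. Alternatives were other normalizations, offsets, filters, weights, detection limits, a replicate block and leaving out each array.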

Additional observations from a re-analysis of the deposited data

Results flagged for a closer look

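Within groups of 5 arrays, 4 of 56 groups checked had an array far from the others by Dixon's 95% criterion, and chance flags about 1 in 20 groups. On the normalized log2 scale miR-6960-3p was 9.70 and miR-7025-3p 10.01 on control cell replicate 4, far below the other control cell arrays. miR-6984-3p was 9.50 on T-C cell replicate 1, above the other T-C cell arrays, and miR-6929-3p was 9.04 on control cell replicate 3, below the other control cell arrays.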

How the results depend on the processing

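With all 10 arrays 37 of 476 miRNAs passed, 9 of them members that fell. These counts were 14 and 3 with median centring, 3 and 0 after subtraction of the blank mean, 1 and 0 with no filter, and 2 and 0 among the miRNAs above the median level. A replicate block gave 22 and 6. Leaving out 1 array gave 1 to 44 miRNAs and 0 to 8 members. Quantile normalization, no normalization, an offset of 200 and array weights kept the member count between 7 and 9, and 0 members rose in any setting. No label says that the replicate numbers pair the arrays. Same-numbered arrays had correlations of deviations from -0.20 to 0.26, and 1 of 5 numbers matched best with its own. So few values cannot settle whether the arrays were paired.

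The median difference of all members was 0.079 without normalization and -0.25 with blanks subtracted, and -0.04 to -0.02 with 1 array left out. The 9 members that fell stayed negative in each of 14 to 20 alternatives they could be fitted in. Signs turned for miR-7027-3p, miR-7082-3p and miR-6946-3p without T-C cell replicate 1 (ranges with 1 array left out -0.031 to 0.21, -0.022 to 0.43 and -0.0088 to 0.29), and for miR-7027-3p also without that array and control cell replicate 4 (-0.0017). They turned for miR-1224-3p (0.041, no normalization), for miR-1224-5p (-0.079 quantile, -0.073 blanks subtracted, -0.10 to 0.14 with 1 array left out) and for miR-877-3p (-0.050 to 0.49 with 1 array left out). miR-7037-3p passed without T-C cell replicate 2 (-0.77, limma adjusted p = 0.0120). The cause was not tested. The detection difference between arms was 4.09 points against the brightest blank spot (exact paired permutation p = 0.0879) and 2.77 to 5.48 with 1 array left out. The difference in members detected was -35.3 to -2.05 with 1 array left out. Signal over background limits 157 of 201 members, which were detected on fewer than 5 arrays.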
